A study of Homo sapiens with 12 samples.

Results

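The genes examined here encode the proteins of the mitochondrial ribosome whose symbols start with MRPL (large subunit) or MRPS (small subunit) followed by a digit. They were taken by symbol from the protein-coding gene IDs of the count table, with no use of the measured values. The rule found 78 of 60675 gene IDs, 49 of the large and 29 of the small subunit, spread over 21 chromosomes. All 78 passed the filter on low counts, so no member was lost before testing.

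The mitochondrial ribosome translates the few proteins that are encoded by mitochondrial DNA, which are core subunits of the respiratory chain and ATP synthase. Its ribosomal RNAs, MT-RNR1 of the small and MT-RNR2 of the large subunit, are transcribed inside the organelle. Its proteins are encoded in the nucleus, made on cytosolic ribosomes and imported. The small subunit reads the mRNA and the large subunit forms the peptide bond. Some members descend from bacterial ribosomal proteins, and others are found in the mitochondrial ribosome alone.

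RNA was sequenced from HT29 cells, an established line from a human colorectal adenocarcinoma, in 12 libraries with 3 in each of 4 groups. The cells were kept for 24 h with a water extract of Aconitum carmichaeli Debeaux (ACD), a monkshood used in herbal medicine. The low dose was 20 µg/mL, the medium dose was 100 µg/mL and the high dose was 500 µg/mL. Control cells received the vehicle, PBS with 2% DMSO, and by the study's methods the extract was made up in the same PBS and DMSO. Every group therefore carried the solvent. The 2% is that of the solution added to the wells and not of the culture medium, where it was diluted. All libraries come from this 1 cell line, no source says that replicates were separate cultures, and p-values then measure only the spread between these libraries. A treatment note kept with the samples names another herb, Poria cocos, while the titles and the treatment field name ACD, and the groups follow the latter.

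The libraries held between 15941250 and 33866636 expected counts, and the shallowest was high-dose replicate 2, the library described as 2-2-1. Genes of chromosome M took 14.0% to 16.6% of the counts at the high dose and 7.41% to 11% elsewhere. Levels are given as CPM, a gene's count scaled to a fixed library total. All 12 markers of colorectal epithelium were measured, and their summed level lay between 11495 and 13562 CPM in vehicle and between 11614 and 13603 CPM at the high dose. Of 10 markers of leukocytes, fibroblasts, endothelium and glia, 2 passed the filter, with a summed level of 2.34 to 4.12 CPM over all libraries, and COL1A2 and OLIG2 had 0 counts in every library. The cells therefore carried the markers of their label. CPM are shares of a library, so less of an mRNA cannot be told apart from more of the other RNAs, nor fewer expressing cells from less RNA per cell.

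The members differed widely in level. Per kilobase of the reference transcript, the median in vehicle was 37.8 CPM per kb (range 5.99 to 122) over the large subunit and 33.3 CPM per kb (range 6.96 to 107) over the small subunit. MRPL51 was highest at 122 ± 18.7 CPM per kb (SD, n = 3), followed by MRPL13 at 121 ± 14.2 CPM per kb, both in the large subunit. MRPS12, a homologue of the bacterial protein that keeps decoding accurate, led the small subunit at 107 ± 21.4 CPM per kb, followed by MRPS24 (104 ± 25 CPM per kb) and MRPS34 (89.3 ± 14.1 CPM per kb). MRPL37 (107 ± 8.11 CPM per kb) and MRPL12 (103 ± 17.2 CPM per kb), a stalk protein that contacts translation factors, were in the same range.

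At the other end, MRPL42 stood at 5.99 ± 0.111, MRPL19 at 6.26 ± 0.204 and MRPL22 at 8.81 ± 0.136 CPM per kb in the large subunit. The lowest members of the small subunit were MRPS23 at 6.96 ± 1.22, MRPS11 at 9.31 ± 1.26 and MRPS14 at 9.52 ± 0.611 CPM per kb. The reference transcript of MRPL42 is 15557 bases long for 426 coding bases, and the lengths of all members start at 496 bases, so the order depends on the transcript chosen. Of the 77 pairs of neighbours in this order, 76 overlapped in mean ± SD of the 3 vehicle libraries, so single ranks are not separated by these data.

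**Figure D1:**
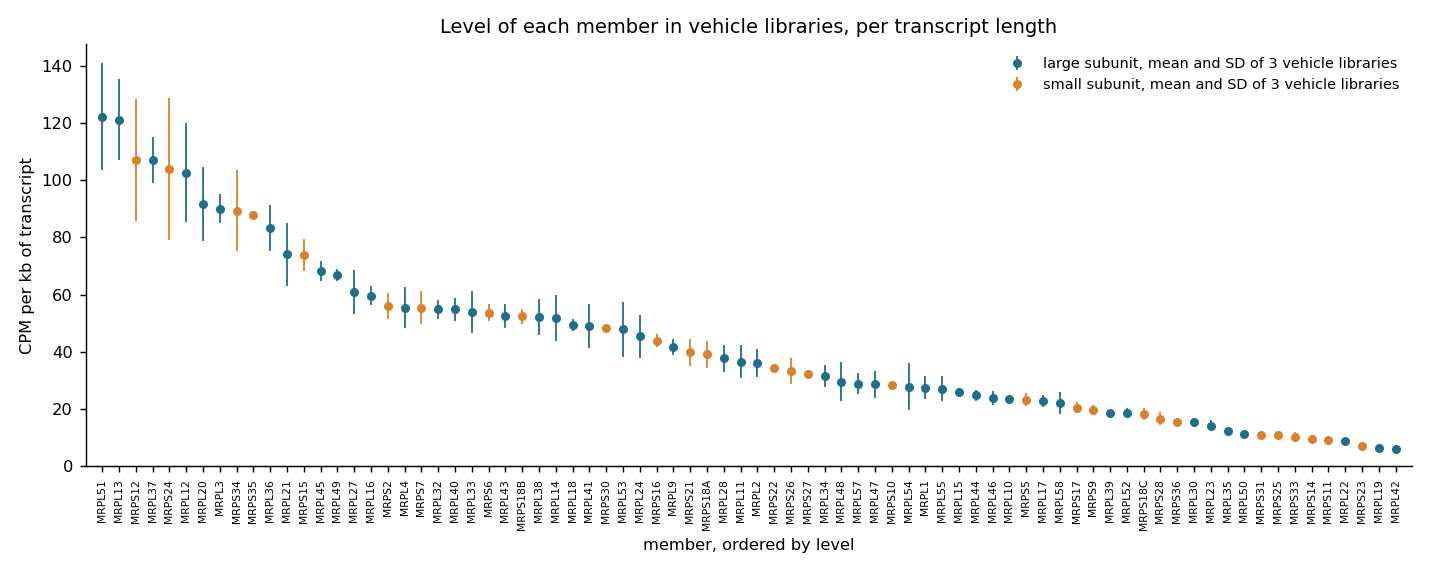
The plot gives the level of each of the 78 members in vehicle as CPM per kb of transcript (y axis), ordered from high to low (x axis), with points for the mean and bars for the SD of 3 libraries. Members of both subunits are mixed along the order, from MRPL51 at 122 to MRPL42 at 5.99 CPM per kb.

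The shift of the members from their vehicle level was taken library by library. In each library, the log2 CPM of every member was set against its mean in vehicle, and the median of these shifts was taken over each subunit. In vehicle the shift was 0.18 for the large and 0.13 for the small subunit in replicate 1, −0.053 and −0.054 in replicate 2, and −0.11 and −0.081 in replicate 3. At the high dose it was −0.16 and −0.15 in replicate 1, 0.48 and 0.38 in replicate 2, and −0.10 and −0.13 in replicate 3. High-dose replicate 2 lay above every other library, and the other high-dose libraries lay below all 3 vehicle libraries for the small subunit, whereas for the large subunit replicate 3 lay between vehicle replicates 2 and 3.

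The doses below were tighter. At the medium dose the shift was −0.16 and −0.13 in replicate 1, −0.13 and −0.081 in replicate 2, and −0.095 and −0.10 in replicate 3. At the low dose it was −0.21 and −0.19 in replicate 1, −0.19 and −0.17 in replicate 2, and −0.021 and −0.0091 in replicate 3. The median over all genes tested stayed between −0.011 and 0.0061 in every library.

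In high-dose replicate 2 all 78 members were above their vehicle mean, against 49.2% of all genes tested. The median shift of the members there was 0.46 on the log2 scale, which 15.3% of all genes exceeded. In vehicle replicate 1, 73 of 78 members were above the vehicle mean. In the other 2 high-dose libraries 62 of 78 members were below it in each.

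**Figure D2:**
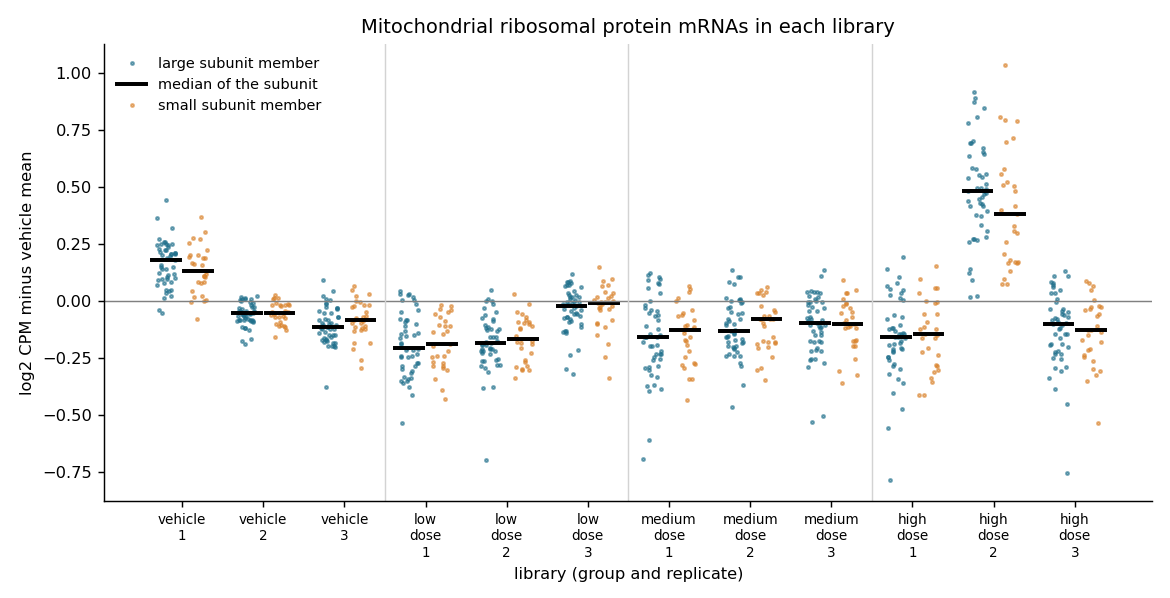
Each point is 1 member in 1 library (x axis, by group and replicate), plotted as its log2 CPM minus its mean over the vehicle libraries (y axis), with a black bar at the median of each subunit. High-dose replicate 2 has its medians at 0.48 and 0.38, while the remaining treated libraries have theirs at or below −0.0091.

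The balance between the subunits was steady in all groups but the high dose. The summed CPM of the large subunit divided by that of the small subunit was 1.64 ± 0.0135 in vehicle, 1.64 ± 0.0120 at the low dose and 1.64 ± 0.00322 at the medium dose (mean ± SD, n = 3). At the high dose it was 1.68 ± 0.0896, made of 1.61, 1.78 and 1.64 in replicates 1, 2 and 3. The ratio thus moved outside its range in the other groups in 2 of the 3 high-dose libraries, upward in replicate 2 and slightly downward in replicate 1. The summed level of all members was 4408 ± 383 CPM in vehicle, 4082 ± 220 CPM at the low dose, 4119 ± 49.4 CPM at the medium dose and 4721 ± 1099 CPM at the high dose. The sum in high-dose replicate 2, 5990 CPM, was 1.43 times the mean of the other 11 libraries.

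The median log2 fold change at the high dose was 0.080 over the large and 0.077 over the small subunit, a difference of 0.0029. At the medium dose the medians were −0.13 and −0.11, and at the low dose −0.14 and −0.095, which leaves differences of −0.016 and −0.050. The large-minus-small difference was also taken in each library from the median shifts given above. Its mean ± SD was 0.0054 ± 0.040 (vehicle), −0.017 ± 0.0039 (low dose), −0.026 ± 0.029 (medium dose) and 0.037 ± 0.057 (high dose). The pooled SD of these values between replicate libraries was 0.038. This SD describes single libraries and not a difference of fold-change medians, so it cannot show whether those differences exceed the spread. With the mean in place of the median the difference of log2 fold changes at the low dose was −0.0099. Structures place MRPS30 and MRPS18A in the large subunit and do not include MRPS36. With the subunits set by structure, the medians were −0.12 and −0.13 at the medium dose, and the difference changed sign to 0.012. At the low dose they were −0.14 and −0.11. The 3 comparisons share the vehicle libraries, and no test was run on these medians.

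No member was called at any dose when all libraries were used. In the quasi-likelihood test of edgeR, with Benjamini–Hochberg adjustment over 15374 genes, 0 of 78 members had an adjusted p under 0.05 at the high dose, where 5.77% of all genes did. The same held at the medium dose (0 of 78, against 1.01% of all genes) and at the low dose (0 of 78, against 0.124%). At an unadjusted p under 0.05 there were 3 members at the high, 4 at the medium and 1 at the low dose, against 20.1%, 11.7% and 7.95% of all genes. DESeq2 also called 0 members in each, with 4, 4 and 1 at an unadjusted p under 0.05, for which no share over all genes is given here. The 95% interval of the fold change excluded a change of 1.5-fold or more in either direction for 64 members at the high dose and for 57 at each of the medium and low doses.

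Among the members at the high dose, 56 of 78 log2 fold changes were above 0, and they ran from −0.47 to 0.34. With edgeR the smallest adjusted p was 0.171 for MRPL10, a stalk protein. Its level was 43.3, 39.6 and 40.1 CPM in the vehicle libraries and 46.9, 49.3 and 43.4 CPM at the high dose, and these groups did not overlap, though the gap was narrow. Its log2 fold change was 0.18 (SE 0.071).

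MRPS18B, 1 of 3 paralogues of a small-subunit protein, was the other member with all 3 high-dose libraries above all 3 vehicle libraries. These are 2 of 78 members, against 10.5% of all genes. Its values were 77.4, 70.2 and 72.5 CPM in vehicle against 78.4, 83.1 and 77.8 CPM at the high dose, with a log2 fold change of 0.12 (SE 0.065). Of the other paralogues, MRPS18C had a log2 fold change of 0.34 (SE 0.25), carried by 57.8 CPM in replicate 2 against 25.2 and 26.1 CPM in replicates 1 and 3. MRPS18A, which structures place in the large subunit, had −0.016 (SE 0.11).

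The highest other values belonged to MRPL39 at 0.34 (SE 0.18), MRPL3 at 0.31 (SE 0.13) and MRPL45 at 0.30 (SE 0.14), and in each of them high-dose replicate 2 was the highest library. MRPL3 lies in the core of the large subunit near the site of peptide bond formation, and MRPL45 at the exit of the peptide tunnel by the inner membrane. MRPL58, a peptidyl-tRNA hydrolase that became a ribosomal protein, had 0.29 (SE 0.19). In the small subunit MRPS33 had 0.25 (SE 0.21), MRPS15 0.22 (SE 0.13) and MRPS31 0.20 (SE 0.18). The 4 lowest values in the large subunit were −0.47 for MRPL54, −0.17 for MRPL52, −0.061 for MRPL44 and −0.055 for MRPL41. In the small subunit they were −0.25 for MRPS11, −0.17 for MRPS34, −0.16 for MRPS6 and −0.084 for MRPS24. No member had every high-dose library below every vehicle library, against 11.5% of all genes.

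Leaving out high-dose replicate 2 turned the direction. The medians became −0.14 for the large and −0.13 for the small subunit, 60 of 78 members were below 0, and 11 members were called, all lower, where 8.89% of all genes were called lower. By symbol they were 6 of the large and 5 of the small subunit, and by structure 6 and 4, since MRPS36 then drops out. The remaining 2 high-dose libraries both lay below all vehicle libraries for 34 members, against 25.2% of all genes. They lay above all vehicle libraries for 2 members, against 25.2% of all genes.

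The 11 members were MRPL54, MRPS11, MRPL14, MRPS28, MRPS6, MRPL27, MRPS36, MRPS34, MRPL20, MRPL16 and MRPL44. MRPL14, MRPS28, MRPL27, MRPL20 and MRPL16 were named after their values were seen. The largest change was that of MRPL54, a small protein at the stalk base (chr19:3762682-3768575, GRCh38, plus strand, 3 exons). It stood at 22.3, 15.7 and 12.6 CPM in vehicle, 11.3, 12.6 and 13.1 CPM at the low dose, and 10.7, 11.9 and 11.3 CPM at the medium dose. At the high dose it was 9.50, 18.1 and 9.69 CPM. Replicate 2 lay between vehicle replicates 1 and 2, and the other 2 high-dose libraries lay under every library of the other groups.

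The log2 fold change of MRPL54 was −0.47 (SE 0.24, adjusted p = 0.309) with all libraries and −0.79 (SE 0.18, adjusted p = 0.0129) without replicate 2. It was the one member past 1.5-fold among those called. Without vehicle replicate 1 as well, its log2 fold change was −0.57 (adjusted p = 0.000467).

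MRPS11, the homologue of bacterial S11 at the platform of the small subunit (chr15:88467453-88480776, GRCh38, plus strand), came next. It stood at 36.1, 31.0 and 27.6 CPM in vehicle and at 23.6, 35.4 and 21.6 CPM at the high dose. Its log2 fold change was −0.25 (SE 0.16) with all libraries and −0.48 (SE 0.098, adjusted p = 0.00268) without replicate 2. It was also called under each of 5 further settings tried without that library, which no other of the 11 was. MRPS11 shares 516 exon bases with another gene on the opposite strand, so its count is uncertain.

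MRPS6, the homologue of bacterial S6 (chr21:34073224-34143034, GRCh38, plus strand), was at 52.8, 49.6 and 47.3 CPM in vehicle, 48.3, 46.4 and 49.8 CPM at the low dose and 42.0, 47.1 and 46.0 CPM at the medium dose. At the high dose it was at 39.0, 56.2 and 39.8 CPM. Its log2 fold change was −0.16 (SE 0.12) with all libraries and −0.34 (SE 0.069, adjusted p = 0.00254) without replicate 2, the smallest adjusted p of the family. MRPS6 shares 265 exon bases with SLC5A3 on the same strand, so its count is uncertain. Against the low dose, without replicate 2, it was the only member called, at −0.29 (SE 0.068, adjusted p = 0.0143), where 3.35% of all genes were called lower.

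MRPS34, a mitochondria-specific protein of the small subunit (chr16:1771890-1773150, GRCh38, minus strand), was at 105, 81.0 and 80.9 CPM in vehicle and at 71.3, 94.5 and 71.6 CPM at the high dose. Its log2 fold change without replicate 2 was −0.31 (SE 0.089, adjusted p = 0.0234). MRPS34 shares 341 exon bases with EME2 on the opposite strand, so its count is uncertain.

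MRPS36, which structures of the ribosome do not include and which belongs to the 2-oxoglutarate dehydrogenase complex, changed sign. It was at 22.1, 18.7 and 19.9 CPM in vehicle and at 16.6, 35.4 and 15.8 CPM at the high dose. Its log2 fold change was 0.13 (SE 0.24) with all libraries and −0.31 (SE 0.083, adjusted p = 0.0148) without replicate 2. The other members of the 11 had log2 fold changes between −0.43 (MRPL14) and −0.24 (MRPL44, which sits near the tunnel exit) without replicate 2.

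**Figure D3:**
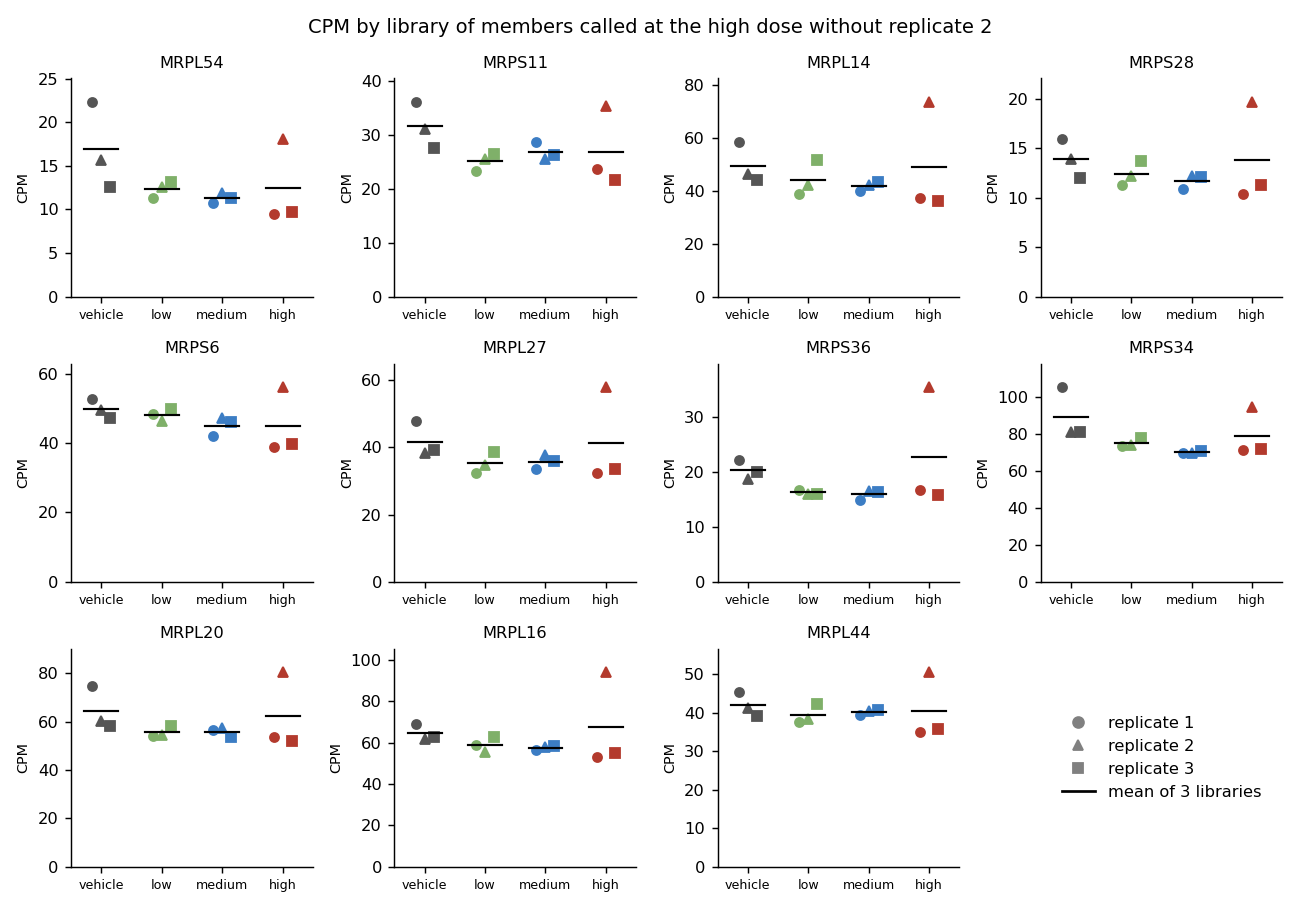
Each panel plots the CPM (y axis, from 0) of 1 of the 11 members called lower at the high dose without replicate 2, by group (x axis), with a symbol for each replicate and a bar at the mean of 3 libraries. In every panel the high-dose triangle, replicate 2, is above the other high-dose libraries, as in MRPL54 with 18.1 against 9.50 and 9.69 CPM.

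**Figure D4:**
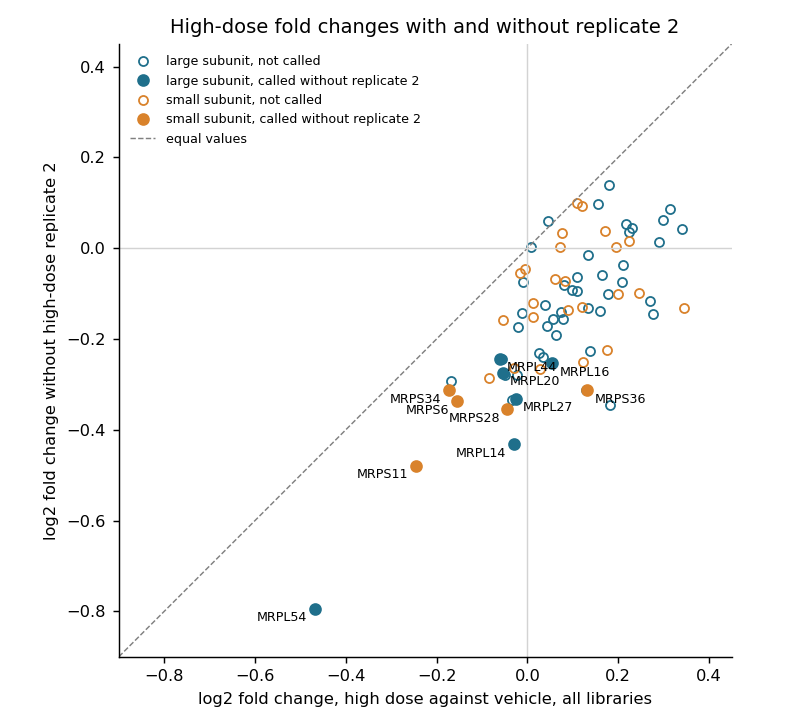
The log2 fold change of each member at the high dose with all libraries (x axis) is set against that without high-dose replicate 2 (y axis), with filled points for members called without it and a dashed line of equal values. Every member except MRPL49 lies below the line, and MRPL54 is lowest on both axes at −0.47 and −0.79.

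The 11 calls were counted again under other settings without replicate 2, chosen after seeing the data. DESeq2 called 12 members, all lower, against 3.78% of the 29532 genes it gave a p. That set includes genes that the edgeR filter left out, so this share is not comparable with the edgeR shares. With vehicle and high-dose libraries alone, edgeR called 3 members, all lower, against 5.16% of all genes. With vehicle replicate 1 left out too, it called 8 members lower, against 8.17% of all genes, and 1 higher, against 9.32%. The 8 were MRPL54, MRPS11, MRPL14, MRPS6, MRPL27, MRPS36, MRPS34 and MRPL16. In that last fit the medians were −0.048 for the large and −0.047 for the small subunit, nearer to 0 than with vehicle replicate 1 kept.

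In several single libraries the shift went along with base composition, with transcript length or with both. Over the 78 members, the Spearman correlation between the shift and the GC content of the transcript was −0.60 in high-dose replicate 2, 0.45 in vehicle replicate 1 and 0.013 in high-dose replicate 1. It was also negative in libraries whose members were below the vehicle mean, at −0.56 in medium-dose replicate 2, −0.47 in vehicle replicate 3 and −0.45 in low-dose replicate 1. With transcript length it was 0.082 in high-dose replicate 2, −0.48 in vehicle replicate 1 and 0.41 in high-dose replicate 1. The correlation with length was 0.58 in medium-dose replicate 2, 0.45 in vehicle replicate 3 and 0.58 in low-dose replicate 1. These points share a library, and no p is given. In high-dose replicate 2 the members below the median GC content of 48.2% had a median shift of 0.55 and the others 0.37. Over all genes tested the median shift there was 0.13 for genes under 45% GC and −0.12 for genes over 55% GC. The median GC content was 50.8% in the large and 46.6% in the small subunit.

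**Figure D5:**
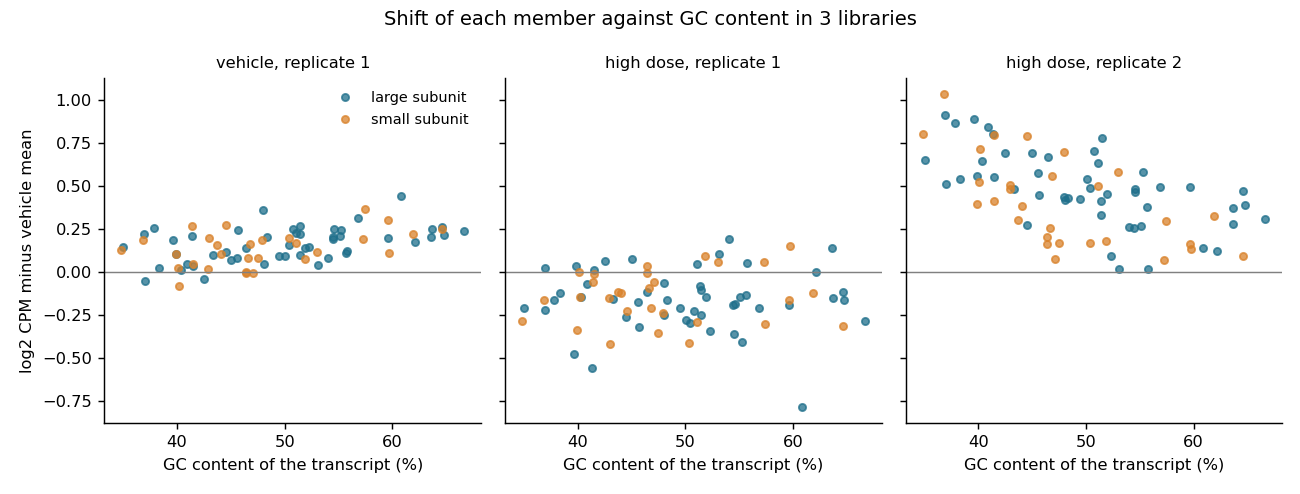
Each point is 1 member, with the GC content of its transcript in percent (x axis) and its log2 CPM minus its vehicle mean (y axis), in vehicle replicate 1, high-dose replicate 1 and high-dose replicate 2. In high-dose replicate 2 the points fall from left to right (Spearman −0.60) and all are above 0.

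With an offset per library for transcript length and GC content, the medians at the high dose were 0.068 for the large and 0.031 for the small subunit over all libraries. In that fit 5 members were called higher, against 6.85% of all genes, and 1 was called lower, against 7.41%. Those higher were MRPL45 at 0.23 (SE 0.047, adjusted p = 0.00556), MRPL3 at 0.22 (SE 0.055, adjusted p = 0.0171), MRPS15 at 0.22 (SE 0.055, adjusted p = 0.0185), MRPL4 at 0.18 (SE 0.046, adjusted p = 0.0205) and MRPL39 at 0.25 (SE 0.067, adjusted p = 0.0223). The one lower was MRPS6 at −0.16 (SE 0.050, adjusted p = 0.0492).

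Leaving out replicate 2 under the same offset gave medians of −0.015 and −0.060, with 8 members called higher and 4 lower, each against 11.5% of all genes. MRPL45, MRPL3, MRPS15, MRPL4 and MRPL39 were again among those called higher, with MRPL10, MRPS18B and MRPS35. The 4 lower were MRPL54 at −0.63 (SE 0.11), MRPS11 at −0.53 (SE 0.099), MRPL14 at −0.30 (SE 0.072) and MRPS34 at −0.21 (SE 0.047). So these 4 members were called lower with and without the offset once replicate 2 was left out. The rest of those called lower without the offset stayed below 0 under it, from −0.16 (MRPL27) to −0.071 (MRPL20), but were not called. The part of length and GC content in the shift of the family was not tested beyond this fit.

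The regions upstream of the start are printed for members called lower without replicate 2 whose 250 upstream bases hold no annotated exon, to show what sequence precedes these transcripts. Of the 11 members, 9 had a window in the RefSeq promoter table (GRCh38.p14), and 4 of these held no exon. Capitals mark matches, on either strand, to GCGCANGCG (NRF1), CCGGAAG (ETS family) or AAGATGGCG (YY1). The positions are chr19:3762432-3762681 (plus strand) for MRPL54, chr1:1407294-1407543 (minus strand) for MRPL20, chr11:59810779-59811028 (minus strand) for MRPL16 and chr2:223957213-223957462 (plus strand) for MRPL44.
MRPL54: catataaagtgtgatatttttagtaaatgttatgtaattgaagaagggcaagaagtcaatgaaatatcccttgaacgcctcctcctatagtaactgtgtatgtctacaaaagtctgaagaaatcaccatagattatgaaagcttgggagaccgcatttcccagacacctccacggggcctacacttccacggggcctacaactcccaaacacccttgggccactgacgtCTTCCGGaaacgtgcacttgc
MRPL20: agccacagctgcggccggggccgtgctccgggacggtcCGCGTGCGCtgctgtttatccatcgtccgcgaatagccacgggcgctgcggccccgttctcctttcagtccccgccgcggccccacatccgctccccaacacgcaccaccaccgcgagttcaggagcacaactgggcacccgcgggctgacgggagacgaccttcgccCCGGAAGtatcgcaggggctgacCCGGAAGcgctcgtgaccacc
MRPL16: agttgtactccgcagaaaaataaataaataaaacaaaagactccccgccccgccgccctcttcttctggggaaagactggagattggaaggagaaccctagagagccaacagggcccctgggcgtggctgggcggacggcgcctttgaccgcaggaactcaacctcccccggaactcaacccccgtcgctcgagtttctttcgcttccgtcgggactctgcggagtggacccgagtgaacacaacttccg
MRPL44: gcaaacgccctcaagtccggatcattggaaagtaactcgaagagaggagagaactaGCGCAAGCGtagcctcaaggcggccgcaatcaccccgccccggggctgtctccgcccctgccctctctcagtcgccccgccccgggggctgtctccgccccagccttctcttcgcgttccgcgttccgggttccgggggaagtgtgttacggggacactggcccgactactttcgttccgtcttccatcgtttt

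MRPL54 has 1 ETS match that starts 21 bases before its start, and MRPL20 has 2, at 44 and 21 bases before it, and an NRF1 match 212 bases before it. MRPL44 has an NRF1 match 194 bases before its start, and MRPL16 has no match in these bases. In the window that also takes in 50 bases after the start, MRPL16 has 1 ETS match. In windows of 300 bases (250 before to 50 after the start), 29 of the 69 members with a window held the ETS motif (42.0%), against 19.4% of 10790 windows of genes tested and 10.3% of all 35116 windows. The YY1 motif was in 13 of 69 (18.8%), against 3.95% of genes tested and 1.75% of all windows. The NRF1 motif was in 13 of 69 (18.8%), against 14.7% and 7.52%. The ETS share was 40.5% in the large and 44.4% in the small subunit. A match describes these letters only, and 24 members held none of the 3 motifs.

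At the medium dose, 68 of 78 log2 fold changes were below 0, with a range of −0.57 to 0.12. With vehicle replicate 1 left out, the medians were −0.045 for the large and −0.039 for the small subunit. Under the offset for length and GC content they were −0.022 and −0.047. Both pairs are nearer to 0 than those of the main fit. In 22 members every medium-dose library was below every vehicle library, against 14.1% of all genes. MRPS35, named after its values were seen, was the 1 member above, against 14.5% of all genes. The smallest adjusted p with all libraries was 0.215, for MRPL34, a short protein with a bacterial homologue, named after its values were seen. It was at 27.4, 22.5 and 22.1 CPM in vehicle, 18.8, 18.3 and 19.4 CPM at the low dose, and 18.5, 19.6 and 16.8 CPM at the medium dose, with no overlap of either dose with vehicle. At the high dose it was at 20.9, 28.6 and 22.2 CPM, which does overlap vehicle.

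The fit without high-dose replicate 2 held the same medium-dose and vehicle libraries, but its estimate of spread, its scaling and the genes passing the filter (15674 against 15374) differed. In that fit 3 members were called, all lower, where 3.25% of all genes were. They were MRPL34 at −0.38 (SE 0.083, adjusted p = 0.0104), MRPS36 at −0.34 (SE 0.075, adjusted p = 0.0110) and MRPS34 at −0.34 (SE 0.080, adjusted p = 0.0174). MRPS36 was at 14.9, 16.5 and 16.3 CPM at the medium dose, and MRPS34 at 69.8, 69.5 and 70.7 CPM, both below their vehicle libraries. With vehicle replicate 1 left out too, 4 members were called at the medium dose, all lower, with MRPL34, MRPS36 and MRPS34 among them. The share over all genes in that fit is not given here, so this count describes the members only.

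At the low dose, 73 of 78 log2 fold changes were below 0, all 29 of the small subunit by symbol among them. Under the offset for length and GC content the medians were −0.034 for the large and −0.020 for the small subunit, nearer to 0 than in the main fit. In 11 members the low-dose libraries lay below all vehicle libraries, against 9.61% of all genes, and in 0 they lay above, against 11.4%. Without high-dose replicate 2, MRPL34 at −0.34 (SE 0.083, adjusted p = 0.0407) and MRPS36 at −0.31 (SE 0.074, adjusted p = 0.0392) were called lower, where 1.06% of all genes were. MRPS36 was at 16.7, 16 and 16 CPM at the low dose, below its vehicle libraries. With vehicle replicate 1 left out as well, neither was called (adjusted p = 0.0919 and 0.0944).

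Between the high and the low dose, 0 of 78 members were called by edgeR with all libraries, against 2.98% of all genes. At an unadjusted p under 0.05 there were 8, against 15.4% of all genes. DESeq2 called 0, with 11 at an unadjusted p under 0.05, for which no share over all genes is given here. The medians were 0.22 and 0.18 for the large and small subunits, and 75 of 78 members were above 0. Without high-dose replicate 2 the medians were 0.011 and −0.0088, with 41 members above and 37 below 0. High-dose replicates 1 and 3 thus differed little from the low dose over the family as a whole, and the interval of 77 members excluded a change of 1.5-fold.

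Among parts of the ribosome, the stalk comprises MRPL10, MRPL11, MRPL12, MRPL53 and MRPL54. Its high-dose median log2 fold change was 0.11 with all libraries and −0.23 without replicate 2. In the fit without replicate 2, 1 of 5 was called lower, against 8.89% of all genes. MRPL12 was at 123, 98.2 and 89.6 CPM in vehicle and at 94.6, 142 and 98.6 CPM at the high dose, which overlap. For MRPL11 the high-dose values were 49.7, 94.6 and 49.8 CPM, against 69.1, 54.4 and 52.1 CPM in vehicle. MRPL53 was at 20.3, 33.1 and 19.7 CPM, against 29.2, 20.9 and 21.1 CPM. It shares 499 exon bases, 72.8% of its own, with CCDC142 on the same strand, so its count is uncertain.

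The core around the site of peptide bond formation (MRPL2, MRPL3, MRPL4, MRPL16 and MRPL27) had medians of 0.054 and −0.17. Here 2 of 5 were called lower without replicate 2, where 8.89% of all genes were. MRPL2, a core protein, was at 50.6, 42.3 and 38.9 CPM in vehicle and 39.5, 52.7 and 38.2 CPM at the high dose. The 7 proteins near the tunnel exit had medians of 0.18 and −0.12, among them MRPL23 at −0.048 (SE 0.22) with all libraries. Of these 7, 1 was called lower without replicate 2, against the same 8.89% of all genes. The 7 of the central protuberance had 0.044 and −0.092 with 0 called by edgeR in either fit. At an unadjusted p under 0.05 there were 0 with all libraries and 2 without replicate 2, against 20.1% and 33.3% of all genes.

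For the 47 members with a bacterial homologue the high-dose median was 0.11 with all libraries and −0.13 without replicate 2, and 7 were then called lower. The 29 mitochondria-specific members had 0.056 and −0.10, and 3 were called lower, where 8.89% of all genes were. These shares, 7 of 47 and 3 of 29, were not tested against each other. At the medium dose the medians of these lists were −0.11 and −0.13, and at the low dose −0.14 and −0.092. MRPS27, a pentatricopeptide repeat protein of the small subunit, was among the steadiest members, at 88.7, 88.1 and 90.4 CPM in vehicle and 88.8, 99.9 and 93.4 CPM at the high dose. MRPS30, placed in the large subunit by structures, was at 79.6, 76.8 and 82.0 CPM in vehicle and 81.4, 91.5 and 77.9 CPM at the high dose.

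The 5 other proteins of the mitochondrial ribosome, whose symbols follow no MRP scheme, gave a high-dose median of −0.036 (log2 fold change) with all libraries and −0.22 without replicate 2. DAP3, a GTP-binding protein of the small subunit, was at 92.4, 92.1 and 88.9 CPM in vehicle and 94.1, 122 and 98.3 CPM at the high dose. CHCHD1 was at 37.9, 27.0 and 26.7 CPM in vehicle and 19.7, 43.5 and 21.2 CPM at the high dose, and was called lower without replicate 2 at −0.56 (SE 0.16, adjusted p = 0.0382). GADD45GIP1 was called lower at the medium dose in that fit at −0.31 (SE 0.083, adjusted p = 0.0322). With all libraries 0 of 5 were called by edgeR, with 1 at an unadjusted p under 0.05 at each dose. Over all genes those shares were 20.1%, 11.7% and 7.95% at the high, medium and low dose.

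The ribosomal RNAs, in contrast to the proteins, were called at 2 doses. MT-RNR1 was between 1227 and 1387 CPM in vehicle, 2899 and 3362 CPM at the medium dose, and 28408 and 31764 CPM at the high dose. Its log2 fold change was 4.56 (SE 0.12, adjusted p = 1.13e-09) at the high and 1.31 (SE 0.11, adjusted p = 5.02e-05) at the medium dose. MT-RNR2 rose by 3.27 (SE 0.12, adjusted p = 3.43e-08) and 0.76 (SE 0.11, adjusted p = 0.00661) on the log2 scale. Both rRNAs were nearly as high without replicate 2, at 4.53 and 3.23, and at the low dose neither was called. The libraries are described as mRNA libraries made from total RNA. How mRNA was enriched is not given in the sources used here, and whether that step differed between libraries was not tested.

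Of 28 assembly factors of the mitochondrial ribosome, edgeR called 0 at the high dose with all libraries. At an unadjusted p under 0.05 there were 2, against 20.1% of all genes. Without replicate 2 it called 3, all lower, where 8.89% of all genes were called lower, and the smallest p was that of RCC1L at −0.23 (SE 0.067, adjusted p = 0.0238), followed by MALSU1 at −0.33 (SE 0.10, adjusted p = 0.0398) and YBEY at −0.38 (SE 0.13, adjusted p = 0.0494). Of 17 translation factors and regulators, MTIF2, the mitochondrial initiation factor 2, was called higher at 0.32 (SE 0.074, adjusted p = 0.0233) with all libraries and at 0.25 (SE 0.061, adjusted p = 0.00854) without replicate 2. MTIF2 was at 35.7, 37.3 and 36.8 CPM in vehicle and 43.2, 50.8 and 43.9 CPM at the high dose, with no overlap. Without replicate 2, GUF1, LRPPRC and GFM1 were also called higher and MTIF3 and MTRFR lower. These are 4 of 17 higher and 2 of 17 lower, against 1540 and 1394 of 15674 genes.

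Other nuclear families were compared by their medians. For the 81 cytosolic ribosomal protein genes tested, the high-dose median was 0.088 (log2 fold change) with all libraries and −0.21 without replicate 2, and edgeR called 0 and 10, the 10 all lower, with 0 and 41 at an unadjusted p under 0.05. Over all genes, 8.89% were called lower and 33.3% had an unadjusted p under 0.05 without replicate 2. For 38 subunit genes of NADH dehydrogenase, the first complex of the respiratory chain, the medians were 0.041 and −0.26, with 0 and 12 called, all lower, and 0 and 22 at an unadjusted p under 0.05. For the mitochondrial ribosomal proteins the median without replicate 2 was −0.13, nearer to 0 than in either family. At the medium dose the medians of the 2 families were both −0.22, against −0.12 for the mitochondrial ribosomal proteins, and at the low dose −0.19 and −0.22, against −0.13. The medians of both families also changed sign when high-dose replicate 2 was left out.

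Counting limits touch some members. In the annotation 29 of 78 members share exon bases with a gene on the opposite strand and 15 with one on the same strand. The library kit was directional, so its reads mark the strand, but the strand setting of the quantification is not given in the sources used here. MRPL51, the highest member per kb, shares 383 exon bases with NCAPD2 on the opposite strand. Of 79 pseudogene IDs named after members, 20 had any count, and MRPS31P5 and MRPS31P4 held 38.6% and 10.1% as many counts as MRPS31, so the values of MRPS31 are uncertain.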

How the data were processed

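The authors deposited expected counts per gene from RSEM, not normalized, for 12 HT29 libraries. The submitters' processing notes name FastQC 0.11.9, Trim Galore 0.6.5, STAR 2.7.3a and RSEM 1.3.3, with GRCh38 as the build. Of the gene IDs, 93.2% are in GENCODE 44, which gave positions, transcript lengths and GC content. All columns were mapped to samples by their labels, with 0 left over.

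Expected counts were rounded and tested in edgeR 4.0.16 (R 4.3.3) with filterByExpr (15374 genes kept), TMM, robust quasi-likelihood fits of 4 group means over 12 libraries, and Benjamini–Hochberg adjustment over all genes tested. A member was called at an adjusted p under 0.05. SEs of log2 fold changes come from the F statistic, and intervals are 95%. Log2 CPM used a prior count of 2. CPM per kb divides CPM by the length of the reference transcript. The common dispersion was 0.0126. DESeq2 1.42.0, other scalings, filters, an offset for transcript length and GC content, the replicate number as a block, the groups alone and each library left out were alternatives. Tables were made in Python 3.11.15 with pandas 2.3.3, numpy 2.4.6 and scipy 1.17.1, and figures with matplotlib 3.10.9. Simulated data with the same design were tested first. Of 100 genes changed by 0.5 up or down on the log2 scale in the simulated high-dose comparison, edgeR called 51, with 11 wrong calls among 15374 genes.

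Members and lists were chosen with earlier results of these data known. Named members were those called in the fit of all libraries, in each subunit the 4 highest and 4 lowest log2 fold changes at the high dose and the 3 highest and 3 lowest levels per length, and members with a fixed role. From other lists, the 3 called genes with the smallest p were named, and others as stated.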

Additional observations from a re-analysis of the deposited data

How the results depend on the processing

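With all libraries, counts of called members stayed at 0 in every comparison under DESeq2, DESeq2 size factors, upper-quartile scaling, library sizes without chromosome M, both other filters and the 1.5-fold threshold. Numbered replicates did not pair: of 18 same-number pairs, 5 had deviations correlated over 0.1 (range −0.50 to 0.37), and with the replicate block 0 members were called in each comparison. With vehicle and medium dose alone, 2 members were called. Leaving out 1 library gave 0 to 11 calls at the high dose, 0 to 3 at the medium and 0 to 2 at the low dose, and 0 to 1 for high against low. The calls above 0 all came from leaving out high-dose replicate 2. The large-minus-small difference then ranged from −0.016 to 0.052 at the high, −0.052 to −0.0057 at the medium and −0.059 to 0.00064 at the low dose.

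The length and GC offset gave 6 calls at the high dose (5 with the replicate block) and 3 for high against low (2 with the block), and medium-dose differences of 0.025 and, with the block, 0.027. Settings without high-dose replicate 2 were chosen after seeing the data. They gave at the high dose 12 calls with the offset, 12 with DESeq2, 3 with the groups alone, 9 with vehicle replicate 1 left out too and 9 with the block. At the medium dose they gave 6, 4, 2, 4 and 3, and for high against low 6, 1, 3, 3 and 1. At the low dose the offset gave 1 and DESeq2 3. Over all genes at the high dose, 6.85% were called higher and 7.41% lower with the offset and all libraries. Without replicate 2, the offset called 11.5% of all genes in each direction. The groups alone then called 5.16% lower, and the fit also without vehicle replicate 1 called 8.17%. DESeq2 called 3.78% lower of the 29532 genes it gave a p. These include genes that the edgeR filter left out, so that share is not comparable with the others. For the other settings no share over all genes is given here, so those counts describe the members only. The differences between subunits under the offset without high-dose replicate 2 were 0.044, 0.023 and −0.0095 at the high, medium and low dose. At the low dose the difference was 0.0013 with vehicle replicate 1 left out too. With all libraries and means in place of medians it was −0.0099.

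MRPL13 reversed at the high dose under DESeq2 without replicate 2 (−0.34), as did MRPS36 in 4 settings without it (−0.31 in edgeR and in DESeq2, −0.25 with vehicle replicate 1 left out too and −0.33 with the block); over single libraries left out, MRPS36 ranged from −0.31 to 0.34. The cause was not tested. The members with the lowest CPM, where depth limits precision most, were MRPL23 and MRPS28. MRPL54, the one called member past 1.5-fold, was close to MRPS28 in CPM in the treated groups, so the same limit applies to it.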
